A study of Mus musculus with 4 samples.

Results

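Cytokine receptors that steer helper T cell responses were measured by RNA-seq in CD4+CD25+ cells, a surface phenotype that enriches for regulatory T cells (Tregs), from mice lacking Helios and from wild-type (WT) mice. The receptor genes were a fixed list of 10 symbols, namely Il4ra, Il7r, Il6ra, Il6st, Il21r, Il27ra, Il12rb1, Il12rb2, Il23r and Il17re. All 10 were found among the 16383 genes of the table, and all 10 were expressed highly enough to be tested. The comparison asked whether these receptors differ when Helios, an Ikaros family transcription factor that Ikzf2 encodes, is missing.

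The Helios KO group held 2 libraries of Ikzf2-/- genotype and the WT group held 2 libraries. All cells were sorted from spleens of mice aged 7 weeks, with no treatment named in the labels. The labels give neither the exons that the null allele lacks nor whether the libraries of a group came from separate mice, and a p-value therefore speaks of the spread among these 4 libraries alone, which may be technical. Each value is a normalised read count per kb, using the median length of the transcripts. Levels compared between genes therefore depend on the annotated lengths, such as 1216.5 bases for Il12rb1 and 5991 for Il6ra.

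A cytokine receptor is usually a pair of chains, of which 1 binds a particular cytokine and the other is shared with further receptors. The chains carry Janus kinases (JAKs), which phosphorylate STAT transcription factors when the cytokine binds. In CD4 T cells, interleukin 4 acts through STAT6 on type 2 responses, interleukin 12 through STAT4 on type 1 responses, and interleukins 6, 21 and 23 through STAT3 on type 17 and follicular responses. In Tregs these inputs bear on whether a cell keeps Foxp3, the lineage-defining factor of Tregs, or takes on helper features. Il17re stands apart in the list, since it belongs to the interleukin 17 receptor family, which does not use JAKs.

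The libraries held 42157138 and 49025051 recovered reads in Helios KO, and 52543073 and 50940291 in WT. Ikzf2 was at 4396 and 3104 in the Helios KO libraries, against 5282 and 7864 in WT (log2 fold change -0.80, SE 0.28, adjusted p 1.00 in limma). The value covers the whole gene, which makes it a weak check of a null allele whose missing exons are not given. Foxp3 (41264 and 25224 in Helios KO, 37578 and 33448 in WT), Il2ra, which encodes CD25 (40457 and 26759 in Helios KO, 39462 and 39620 in WT), and Cd4 (43526 and 36704 in Helios KO, 39938 and 38191 in WT) were abundant in every library. Helios KO replicate 2 stood apart. Its summed level of 8 marker lists of other cells (B cells, macrophages and monocytes, neutrophils, dendritic cells, NK and cytotoxic cells, innate-like T cells and ILC3, erythroid cells, platelets) was 1.58 to 378 times the WT mean, against 0.379 to 1.11 times in Helios KO replicate 1. T cell markers were at 0.957 and Treg markers at 0.823 times the WT mean in Helios KO replicate 2, and at 1.07 and 1.14 times in replicate 1. In such bulk samples, fewer cells of a type and less RNA per cell cannot be told apart.

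The receptor genes fell into 2 classes, 7 abundant ones whose levels differed little between libraries and 3 sparse ones that differed widely. Only the abundant ones were counted against genes of like level, so the wide spread of the sparse ones may not be particular to them. In the WT libraries the order was Il4ra, Il21r, Il27ra, Il7r, Il6st, Il12rb1 and Il6ra, spanning 8.54-fold from first to last. A gap of 29.4-fold followed before Il17re, Il23r and Il12rb2. Of the 9 pairs of neighbours in that order, 6 had WT means further apart than the sum of their SDs. The exceptions were Il4ra and Il21r, Il7r and Il6st, and Il17re and Il23r. The order depends on the transcript lengths used. In WT replicate 1, Il6ra had 13918 recovered reads and Il12rb1 had 4261, although Il12rb1 stands higher in the order.

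**Figure D1:**
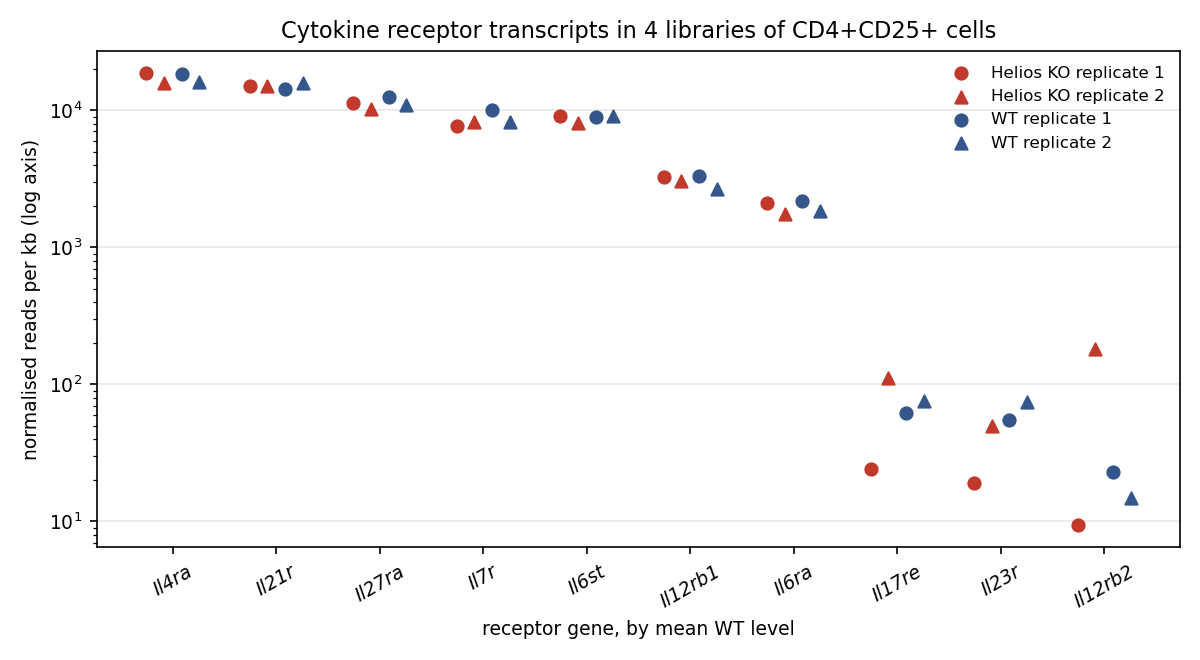
Level of each receptor gene (normalised reads per kb, log axis) in the 4 libraries, ordered by mean WT level, with 1 point per library. The 7 genes on the left lie close together in all libraries, and Il12rb2 spans from 9.46 in Helios KO replicate 1 to 182 in Helios KO replicate 2.

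No receptor gene was called changed. In limma, fitted to log2(value + 1) with Benjamini-Hochberg adjustment over 11571 genes, 0 of the 10 passed an adjusted p under 0.05, and the same was true of 0% of all tested genes. At an unadjusted p under 0.05 the counts were 0 of the 10 receptors and 386 of all tested genes (3.34%), and limma-voom on recovered reads also called 0 genes. The libraries of the genotypes did not overlap for 2 of the 10 receptors, against 28.2% of all tested genes. These 2, Il7r and Il23r, lay lower in both Helios KO libraries (15.7% of all tested genes), and 0 lay higher (12.5%). With 10 receptors, such counts are near the background and are not read as a result about them. The median log2 fold change of the receptors was -0.06, against -0.0014 over all tested genes.

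Among the abundant receptors, the highest and lowest of the 4 libraries differed by 0.15 to 0.38 on the log2 scale, with a median of 0.29. All 7 stayed under a range of 0.5, as did 90.0% of the 6163 tested genes with a mean of at least 1000, whose median range was 0.24. Their 95% intervals for the ratio of Helios KO to WT reached from 0.703 at the lowest to 1.33 at the highest. Differences within those bounds could not be told from none with 2 libraries a group.

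**Figure D2:**
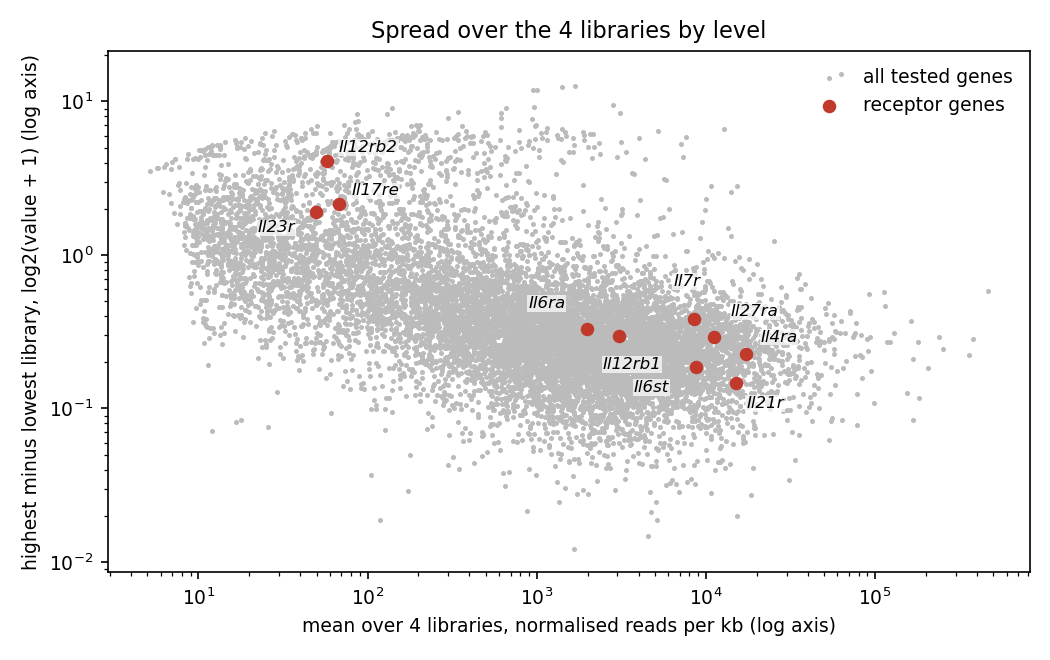
Highest minus lowest library on the log2(value + 1) scale (log axis) against mean level (normalised reads per kb, log axis) for all 11571 tested genes in grey and the receptor genes in red. The abundant receptors lie within the cloud of genes of like level, at 0.15 to 0.38, and Il12rb2 lies at 4.13.

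Il4ra (ENSMUSG00000030748, chromosome 7, 125552120 to 125579474, plus strand, mm10) encodes the chain that binds interleukin 4 and takes part in both the interleukin 4 and the interleukin 13 receptor. It was at 18604 and 15905 in Helios KO, against 18306 and 16077 in WT. The first replicate was the higher one in both genotypes, and the genotypes overlapped. Its log2 fold change was 0.0039 (SE 0.13, 95% interval -0.31 to 0.32), with the sign turned to -0.11 without Helios KO replicate 1. An antisense gene, Gm44876, shares 571 bases (9.51%) of its exons, and the preparation does not mark strand.

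Il21r (ENSMUSG00000030745, chromosome 7, 125603429 to 125633570, plus strand) encodes the receptor for interleukin 21, a cytokine of follicular helper and type 17 cells. Its gene starts 24.0 kb past the end of Il4ra, with 0 protein-coding genes between them. Levels were 15055 and 14969 in Helios KO, against 14294 and 15827 in WT. Both Helios KO values fell between the WT values. Genotypes differed by -0.0028 on the log2 scale (SE 0.099, 95% interval -0.25 to 0.25), which turned to 0.0014 when libraries were scaled by median ratios. The lowest and highest library differed by 1.11-fold, and 12.6% of tested genes varied less.

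Il7r (ENSMUSG00000003882, chromosome 15, 9505788 to 9530176, minus strand) encodes CD127, the interleukin 7 receptor chain that supports the survival of naive and memory T cells and that Tregs carry at low surface density. It was at 7664 and 8194 in Helios KO, against 9974 and 8248 in WT. Both Helios KO libraries lay below both WT libraries, replicate 2 by a narrow margin. Genotypes differed by -0.19 on the log2 scale (SE 0.12, 95% interval -0.51 to 0.12, adjusted p 1.00 in limma), and the difference was -0.058 without WT replicate 1 and -0.33 when WT replicate 2 was left out. The WT libraries differed from each other by 0.27 on the log2 scale, more than the genotypes did.

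The receptors of the interleukin 6 and 27 group share gp130, the signalling chain encoded by Il6st (ENSMUSG00000021756, chromosome 13, 112464070 to 112510086, plus strand). Il6st was at 9157 and 8047 in Helios KO, against 8886 and 9035 in WT. Helios KO replicate 1 lay above both WT libraries and replicate 2 below both, with a log2 fold change of -0.06 (SE 0.10, 95% interval -0.33 to 0.20). The sign turned to 0.03 when the Helios KO group was replicate 1 alone.

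Il6ra (ENSMUSG00000027947, chromosome 3, 89864059 to 89913196, minus strand) encodes the chain that binds interleukin 6, a cytokine that opposes the induction of Foxp3. It was at 2118 and 1737 in Helios KO, against 2184 and 1842 in WT. As for Il4ra, replicate 1 was the higher library in both genotypes and the genotypes overlapped. Its log2 fold change was -0.06 (SE 0.15, 95% interval -0.44 to 0.31), and 0.08 without Helios KO replicate 2. Il6ra is also known from monocytes and neutrophils. Helios KO replicate 2, with summed macrophage and monocyte markers (10 of 11 in the table) at 58733 against 1868 to 3711 in the other libraries, was its lowest library. Neutrophil markers (10 of 10 in the table) summed to 36230 there and to 48.7 to 143 elsewhere, with Elane, a defining granule protease, listed at 0 in the other 3 libraries. The part of such cells in the level of Il6ra was not tested. An antisense gene, Gm42809, shares 242 bases (2.80%) of the exons of Il6ra.

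Il27ra (ENSMUSG00000005465, chromosome 8, 84030294 to 84042589, minus strand) encodes the chain that joins gp130 to bind interleukin 27, which restrains type 17 cells. It was at 11223 and 10154 in Helios KO, against 12436 and 11011 in WT. Helios KO replicate 1 lay between the WT libraries and replicate 2 below them. Its log2 fold change was -0.13 (SE 0.11, 95% interval -0.41 to 0.15), and it lay between -0.22 and -0.045 when each library was left out in turn.

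Interleukin 12 and interleukin 23 share the chain encoded by Il12rb1 (ENSMUSG00000000791, chromosome 8, 70808449 to 70821424, plus strand). Il12rb1 was at 3248 and 3044 in Helios KO, against 3293 and 2679 in WT. Both Helios KO values fell between the WT values, with a log2 fold change of 0.08 (SE 0.13, 95% interval -0.25 to 0.41). The sign turned to -0.067 without WT replicate 2. Its partners were far sparser in every library.

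**Figure D3:**
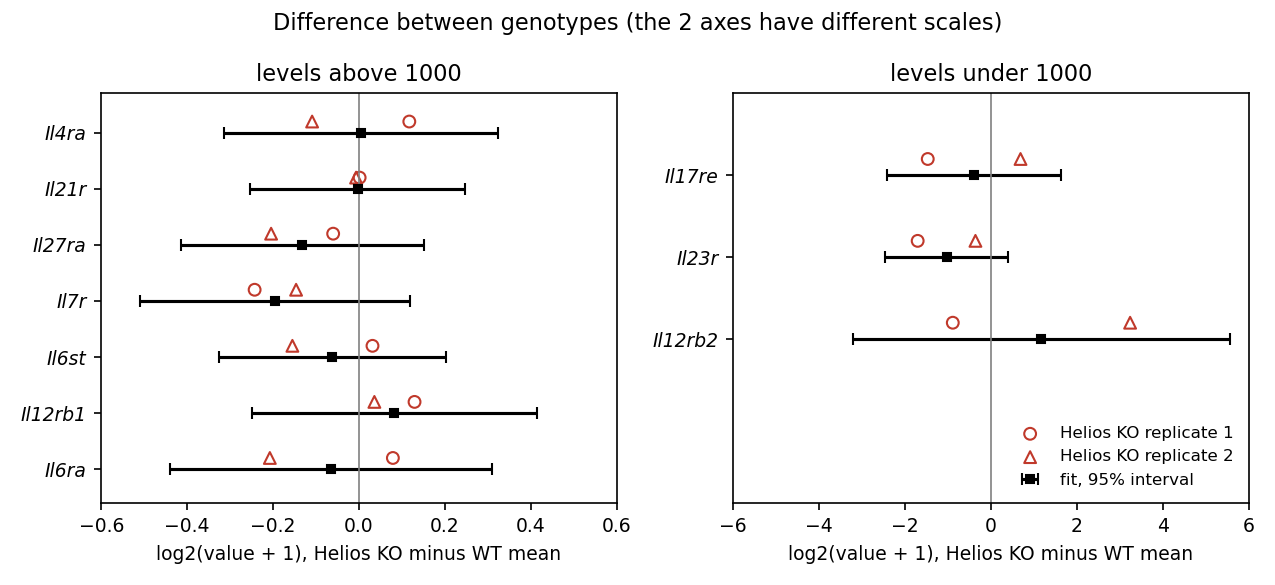
Log2 difference of Helios KO from WT for each receptor gene on the log2(value + 1) scale, with the limma estimate and its 95% interval (squares and bars) and each Helios KO library minus the mean of the WT libraries (open symbols). The left panel holds the 7 abundant genes and the right panel the 3 sparse ones on a wider axis, where the open symbols of Il12rb2 lie at -0.89 and 3.24.

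Il12rb2 and Il23r encode the cytokine-specific partners of Il12rb1, and were among the sparsest receptors. They lie next to each other on chromosome 6 on the same strand, 46.7 kb apart with 0 protein-coding genes between them. Because their values varied most along with Il17re, and because their upstream windows do not run into an annotated first exon, the 250 bases before each start are shown, from RefSeq on GRCm38.p6, the assembly of mm10. Capitals mark matches to GGGAA, the core recognised by Ikaros family factors, or its reverse complement TTCCC, and to TTCNNNGAA, the palindromic STAT motif.
Il12rb2 (chr6:67376189-67376438, minus strand): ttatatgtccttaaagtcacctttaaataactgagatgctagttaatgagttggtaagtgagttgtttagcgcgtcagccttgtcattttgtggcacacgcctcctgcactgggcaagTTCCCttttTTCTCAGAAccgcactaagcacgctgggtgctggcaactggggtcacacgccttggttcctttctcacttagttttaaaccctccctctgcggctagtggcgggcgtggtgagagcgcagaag
Il23r (chr6:67491856-67492105, minus strand): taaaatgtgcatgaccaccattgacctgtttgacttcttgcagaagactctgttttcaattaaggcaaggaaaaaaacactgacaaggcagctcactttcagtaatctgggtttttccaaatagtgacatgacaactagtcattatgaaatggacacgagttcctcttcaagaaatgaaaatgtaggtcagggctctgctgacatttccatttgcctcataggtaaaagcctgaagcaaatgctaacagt

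The Il12rb2 window held 1 match to the GGGAA core, at position -132 relative to the start, and 1 match to the STAT motif, at -123, which do not overlap. The Il23r window held neither. Promoter windows were found for 8 of the 10 receptors, of which 5 held the GGGAA core and 2, Il12rb2 and Il7r, the STAT motif, with the wider STAT6 spacing, TTCNNNNGAA, in 0. Of all 32851 windows of that length, 56.2% held the core, 7.02% the STAT motif and 5.85% the STAT6 spacing. A match is a run of letters and does not show binding.

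Il12rb2 (ENSMUSG00000018341, chromosome 6, 67291318 to 67376188, minus strand) encodes the chain through which interleukin 12 activates STAT4 in type 1 helper cells and NK cells. It was at 9.46 and 182 in Helios KO, against 22.8 and 14.7 in WT. Helios KO replicate 1 was the lowest library and replicate 2 the highest, 19.2-fold apart. The recovered reads were 23 and 514 in Helios KO, and 68 and 44 in WT. Exact Poisson 95% intervals of 14.6 to 34.5 and 471 to 560 reads in Helios KO do not meet, so the gap is beyond counting error, which is all that these intervals cover.

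The log2 fold change of Il12rb2 was 1.18 (SE 1.55, 95% interval -3.21 to 5.56, adjusted p 1.00 in limma). Without Helios KO replicate 1 it was 3.24 and was called (adjusted p 0.0035 in limma), in a fit that called 758 of 11431 genes (6.63%) and assumes that the lone Helios KO library varies like WT. Without Helios KO replicate 2 it was -0.89 and was not called (adjusted p 1.00 in limma), in a fit that called 40 of 11340 genes (0.353%). Il12rb2 shares 1519 bases (40.0%) of its exons with Serbp1 on the other strand, an abundant gene at 11979 and 12145 in Helios KO and 11825 and 12434 in WT. The preparation does not mark strand and the read counter is not given, so the Il12rb2 values may hold reads of Serbp1, and their part in those values was not tested.

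Markers of NK and cytotoxic cells were high in the library with high Il12rb2, as were those of other cell types. In Helios KO replicate 2 their sum was 5.29 times the WT mean, and the lists of other cells ranged from 1.58 to 378 times. The rise was thus not particular to NK and cytotoxic cells. All 10 genes of the NK and cytotoxic list were in the table and none was at 0. They summed to 4310 and 28168 in Helios KO, against 4740 and 5900 in WT. In Helios KO replicate 2, 9 of the 10 were at their highest. Ncr1, an activating receptor of NK cells, was at 27.3 and 1730 in Helios KO, against 74.4 and 99.3 in WT, and Klrk1, which encodes NKG2D, was at 87.4 and 2772 in Helios KO, against 200.1 and 178 in WT. Tbx21, the type 1 regulator T-bet, was at 478 and 1605 in Helios KO, against 452 and 407 in WT. Eomes, a related factor of cytotoxic cells, was at 189 and 679 in Helios KO, against 216 and 205 in WT. These 4 genes were singled out after their values were seen. The part of other cells in the level of Il12rb2 was not tested.

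Il23r (ENSMUSG00000049093, chromosome 6, 67422932 to 67491855, minus strand) encodes the chain that makes type 17 cells responsive to interleukin 23. It was at 19.0 and 49.7 in Helios KO, against 55.2 and 74.5 in WT. Both Helios KO libraries lay below both WT libraries, with replicate 1 furthest down. The recovered reads were 41 and 125 in Helios KO, and 146 and 198 in WT. As normalised reads per kb, the exact Poisson 95% interval of Helios KO replicate 2, 41.4 to 59.2, overlapped that of WT replicate 1, 46.6 to 64.9.

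The log2 fold change of Il23r was -1.03 (SE 0.57, 95% interval -2.46 to 0.40, adjusted p 1.00 in limma), the ratio of means being 0.53. It was -1.70 without Helios KO replicate 2 (adjusted p 0.191 in limma) and -0.36 with replicate 1 left out instead (adjusted p 0.824 in limma). Every library left out kept it below 0, between -1.70 and -0.36, and no such fit called it.

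Il17re (ENSMUSG00000043088, chromosome 6, 113458484 to 113470758, plus strand) encodes the chain that pairs with Il17ra to bind interleukin 17C. It was at 24.0 and 110 in Helios KO, against 61.4 and 75.7 in WT. Helios KO replicate 1 was the lowest library and replicate 2 the highest, so that the mean was 67.2 ± 61.2 in Helios KO and 68.5 ± 10.1 in WT (SD, n = 2 each). The recovered reads were 44 and 236 in Helios KO, and 138 and 171 in WT. Its log2 fold change was -0.39 (SE 0.78, 95% interval -2.42 to 1.64), and it was 0.69 with replicate 2 as the lone Helios KO library and -1.47 with replicate 1.

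Il23r and Il17re had their lowest level in the same library as Rora, a nuclear receptor that promotes type 17 differentiation. Rora was at 1805 and 2376 in Helios KO, against 3205 and 3691 in WT. It lay lower in both Helios KO libraries, replicate 1 furthest down, as Il23r did. Il17re differed, being highest in Helios KO replicate 2. Rora was named because its p was among the 2 smallest of its list. Its match with the receptors in Helios KO replicate 1 therefore follows in part from that choice, and no link is read from it. The list of innate-like T cells and ILC3, of which 5 of 8 were in the table, summed to 163 and 681 in Helios KO, against 373 and 490 in WT. Il17a, a defining cytokine of that list, was listed at 0 in Helios KO replicate 1 and at 49.0 in Helios KO replicate 2, and at 0 in both WT libraries. The part of such cells in the levels of Il23r and Il17re was not tested.

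**Figure D4:**
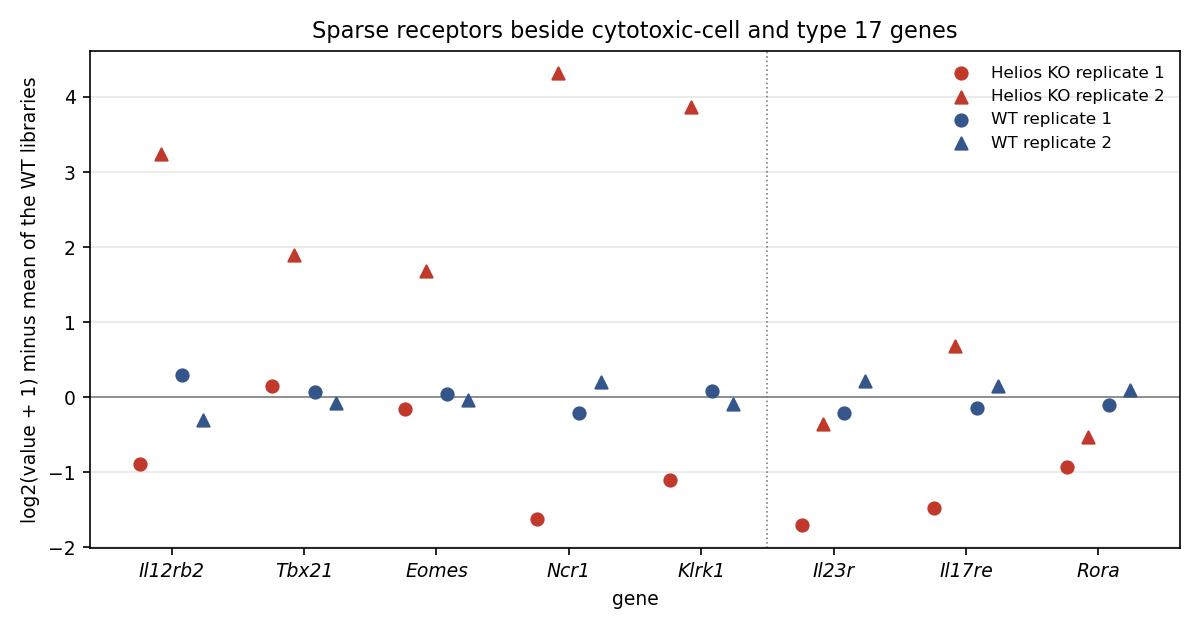
Log2(value + 1) of each library minus the mean of the WT libraries for Il12rb2 beside type 1 and NK cell genes (left of the dotted line) and for Il23r and Il17re beside Rora (right), with 1 point per library. Helios KO replicate 2 is the highest library for every gene on the left, and Helios KO replicate 1 is the lowest for every gene on the right. The genes beside the receptors were chosen with their values known. Summed markers of other cell types, not drawn, were also above the WT mean in Helios KO replicate 2.

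The ratio of 2 chains within a library hardly depends on how libraries are scaled, but its size depends on the transcript lengths used. In all, 9 such ratios were compared. None passed an exact two-sided permutation test, whose smallest possible p with 2 libraries against 2 is 0.333, and each adjusted p was 1.00. Il6st exceeded Il6ra 4.32 and 4.63 times in Helios KO, against 4.07 and 4.91 times in WT. Il27ra exceeded Il6st 1.23 and 1.26 times in Helios KO, against 1.40 and 1.22 times in WT. Both ratios overlapped between the genotypes.

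The common gamma chain, encoded by Il2rg, is shared by the interleukin 4, 7 and 21 receptors, and its level varied little. It was at 32722 and 31178 in Helios KO, against 32512 and 32279 in WT, and 1.86% of tested genes varied less. Il2rg exceeded Il4ra 1.76 and 1.96 times in Helios KO, against 1.78 and 2.01 times in WT. It exceeded Il21r 2.17 and 2.08 times in Helios KO, against 2.27 and 2.04 times in WT. It exceeded Il7r 4.27 and 3.80 times in Helios KO, against 3.26 and 3.91 times in WT. In each of these ratios the genotypes overlapped.

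**Figure D5:**
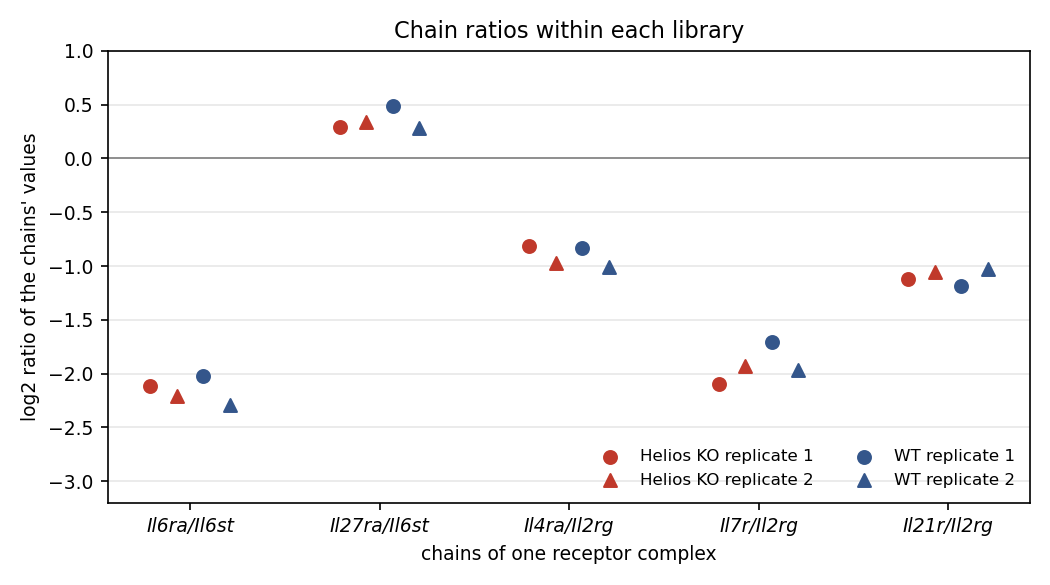
Log2 ratio of the values of 2 chains of one receptor within each library, for the 5 pairs of abundant chains, with 1 point per library. The points of each pair lie close together, with Il6ra/Il6st between -2.29 and -2.02 and Il7r/Il2rg between -2.09 and -1.70.

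Ratios with a sparse chain moved with that chain. Il12rb1 exceeded Il12rb2 343 and 16.8 times in Helios KO, against 144 and 182 times in WT. It exceeded Il23r 171 and 61.2 times in Helios KO, against 59.7 and 36.0 times in WT, and this was the ratio whose genotypes did not overlap (log2 difference -1.11, exact permutation p 0.333). That difference was -0.40 without Helios KO replicate 1 and -1.83 without replicate 2. Il17ra, the shared chain of the interleukin 17 receptors, was at 4453 and 4755 in Helios KO, against 4548 and 4042 in WT, and exceeded Il17re 186 and 43.0 times in Helios KO, against 74.1 and 53.4 times in WT. Il13ra1, which joins Il4ra in the interleukin 13 receptor, was at 44.4 and 336 in Helios KO, against 32.7 and 58.0 in WT. It was thus sparse in all libraries and highest in Helios KO replicate 2. Il4ra exceeded Il13ra1 419 and 47.4 times in Helios KO, against 560 and 277 times in WT.

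Among the cytokines that these receptors bind, 0 of 6 tested were called, 2 lay higher in both Helios KO libraries and 0 lower, with 12.5% of all tested genes higher and 15.7% lower. The list held 15 genes, and the other 9, Il6, Il7, Il13, Il27, Il12a, Il12b, Il23a, Il11 and Tslp, were too low to be tested. The median log2 fold change of the tested ones was 0.20. Il4, the type 2 cytokine, was at 83.5 and 154 in Helios KO, against 21.6 and 41.4 in WT (log2 fold change 1.89, SE 0.51). Il21 was at 89.8 and 152 in Helios KO, against 15.3 and 60.1 in WT (log2 fold change 1.90, SE 0.73). Both had an adjusted p of 1.00 in limma, and Il4 was called without Helios KO replicate 1 (log2 fold change 2.32, adjusted p 0.0229 in limma), in the fit that called 6.63% of genes. The receptor chains for both cytokines, Il4ra and Il21r, had overlapping levels. Il6 was at 8.76 and 103 in Helios KO, against 7.15 and 0 in WT.

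Of the partner chains, 0 of 6 tested were called, 1 lay higher in both Helios KO libraries (12.5% of all tested genes) and 0 lower (15.7%), with a median log2 fold change of 0.13. That gene was Il17rb, which pairs with Il17ra to bind interleukin 25, at 418 and 369 in Helios KO and 260 and 185 in WT (log2 fold change 0.84, SE 0.23, adjusted p 1.00 in limma). For Il13ra1 the genotypes differed by 1.47 on the log2 scale (SE 1.13). It was called without Helios KO replicate 1 (2.92, adjusted p 0.00287 in limma), and differed by 0.026 with replicate 1 as the lone Helios KO library.

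Downstream of the receptors, of 11 JAK and STAT genes, all tested, 0 were called, 2 lay higher (12.5% of all tested genes) and 1 lower (15.7%) in both Helios KO libraries, with a median of -0.03. Stat3, used by interleukins 6, 21 and 23, was at 44737 and 45138 in Helios KO, against 42418 and 40880 in WT (log2 fold change 0.11, SE 0.094). Each Helios KO library lay above each WT library for Stat3, with an adjusted p of 1.00 in limma.

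Of 15 inhibitors and sheddases, 0 were called, 3 lay higher and 2 lower in both Helios KO libraries, against 12.5% and 15.7% of all tested genes, with a median of 0.03. Socs5, of the suppressor of cytokine signalling family, was at 856 and 838 in Helios KO, against 1020 and 1136 in WT (log2 fold change -0.35, SE 0.12). Pias3, an inhibitor of STAT3, was at 2070 and 1929 in Helios KO, against 2609 and 2417 in WT (log2 fold change -0.33, SE 0.10). Neither passed over all genes (adjusted p 1.00 in limma). Socs3, which binds gp130 and was singled out after its values were seen, was at 31546 and 30406 in Helios KO, against 22404 and 26871 in WT (log2 fold change 0.34, SE 0.12). It was not called over all genes either.

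Of 12 tested regulators of helper fates, 0 were called, 3 lay higher and 2 lower in both Helios KO libraries (12.5% and 15.7% over all tested genes), with a median of 0.04. Rora had a log2 fold change of -0.73 (SE 0.16, adjusted p 1.00 in limma) and was called without Helios KO replicate 2 (-0.93, adjusted p 0.0489 in limma), in the fit that called 0.353% of genes. Batf, an AP-1 family factor needed for type 17 cells, was at 9819 and 10469 in Helios KO, against 7120 and 9085 in WT (log2 fold change 0.33, SE 0.14). Without Helios KO replicate 1, Tbx21 (log2 fold change 1.90), Eomes (1.68) and Nfil3 (0.82), a basic leucine zipper factor, were called in limma, in the fit that called 6.63% of all genes. The lone Helios KO library of that fit is replicate 2, whose markers of other cells summed to 1.58 to 378 times the WT mean, and their part in these calls was not tested. Of 7 genes listed as regulators of Il7r transcription, 0 were called, and 1 lay higher and 4 lower in both Helios KO libraries. Their median log2 fold change was -0.11. Whether Klf2, the gene that lay higher, acts on Il7r was not tested. Over all tested genes 12.5% lay higher and 15.7% lower, and nothing particular to these 7 genes is read from the count. Ets1, an activator of T cell genes, was at 55674 and 50172 in Helios KO, against 66604 and 57413 in WT (log2 fold change -0.23, SE 0.12), and Klf2, a target of Foxo1, was at 9047 and 11026 in Helios KO, against 7822 and 7441 in WT (log2 fold change 0.39, SE 0.13).

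Genes with the most similar pattern were sought for the 3 receptors with the smallest p, by Euclidean distance of centred log2(value + 1) over the 4 libraries among 11096 genes. For Il23r this was Cntn1, at a distance of 0.08, with 19.9 and 49.4 in Helios KO and 54.2 and 72.7 in WT. Only 34 genes lay within 0.5 of Il23r. For Il7r it was Heatr3 (0.015) and for Il27ra it was Pcgf6 (0.011), but 7737 and 8081 genes lay within 0.5 of these even receptors.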

How the data were processed

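Per the labels' protocols, 5 ng of total RNA per library went through SMART-Seq cDNA synthesis (10 PCR cycles) and Tn5 tagmentation (12 cycles), which does not mark strand. The submitters' processing notes name bcl2fastq 2.17.1.14 and mm10, with aligner and read counter not given in the sources used here. Per the file headers, the signal the authors deposited is a normalised count over the median transcript length in kb. Multiplying by GENCODE M21 lengths gave whole reads (tolerance 0.01) for 97.2% of 58026 nonzero values. Of protein-coding genes, 20.2% have identifiers past the table's last one and were not analysed here.

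Since these are no raw counts, limma 3.58.1 (R 4.3.3; trend, robust) was fitted to log2(value + 1), which understates changes of low genes, for genes of at least 10 in 2 or more libraries, with genotype as the only term. The fit was tested on simulated data whose spread was taken from the WT libraries alone. No simulated library departed from the rest as Helios KO replicate 2 does, so the test does not cover that case. Chain ratios used exact permutation tests in SciPy 1.17.1. Members, lists and the naming rule (the receptors, their second chains, and per list the called genes or the 2 smallest p) were chosen with earlier results of these data known. A gene that the rule names is not reported here. Alternatives covered scaling, filters, pseudocounts, limma-voom, the replicate block and leaving out each library.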

Additional observations from a re-analysis of the deposited data

How the results depend on the processing

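The count of genes called was 0 under every alternative that kept all 4 libraries, and 0 to 758 when 1 was left out, with 758 when Helios KO replicate 1 was left out and 40 when replicate 2 was. For the receptors these counts were 0 to 1 and for the pathway lists 0 to 5. With all 4 libraries, 76 of 77 receptor fold changes under alternatives kept their sign and call, and Il21r turned to 0.0014 under median ratios. Leaving out each library gave log2 ranges of -0.11 to 0.12 for Il4ra, -0.21 to 0.079 for Il6ra, -0.16 to 0.031 for Il6st, -0.076 to 0.071 for Il21r, -0.067 to 0.23 for Il12rb1, -0.89 to 3.24 for Il12rb2 and -1.47 to 0.69 for Il17re. Differences of log2 chain ratios ranged over -0.14 to 0.13 (Il6ra/Il6st), -0.17 to 0.029 (Il27ra/Il6st), -1.02 to 3.20 (Il12rb2/Il12rb1), -0.064 to 0.11 (Il4ra/Il2rg), -0.061 to 0.096 (Il21r/Il2rg), -3.03 to 0.091 (Il4ra/Il13ra1), -1.52 to 0.54 (Il17re/Il17ra), -0.31 to -0.042 (Il7r/Il2rg) and -1.83 to -0.40 (Il23r/Il12rb1). The cause was not tested. Il12rb2, Il17re and Il23r gave no value at a mean of at least 100.

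The replicate block gave 0 called genes, receptors and list members. Same-numbered libraries share only a number, and their deviations correlated at 0.11. With 2 libraries a group, intervals for the sparse receptors span several-fold changes.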
